A study of Mus musculus and Meriones unguiculatus with 4 samples.

Results

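Integrins were examined here in the enamel knot region of tooth germs, as 10 genes that encode integrin subunits of epithelium, taken by gene name from 2 deposited expression tables. The members were the alpha subunit genes Itga2, Itga3, Itga5, Itga6, Itga9 and Itgav and the beta subunit genes Itgb1, Itgb4, Itgb6 and Itgb8. All 10 names occurred once in the mouse table and 9 in the gerbil table, against 13322 uniquely named genes that the tables share. By the labels, the gerbil group was wild-type Meriones unguiculatus at embryonic day 15. The mouse group was wild-type embryos at embryonic day 13, and each group had 2 libraries. The enamel knot, a signalling centre of the dental epithelium, had been cut by laser microdissection from fixed, frozen-sectioned mandibular tooth germs, and the labels do not say how many animals went into a library. The gerbil columns are named E23 and E21 and the mouse columns SEK and PEK, and the labels do not explain these names. Read as embryonic days, E23 and E21 would differ from the labelled day 15, so the gerbil age is uncertain. Should the names mark distinct stages or parts of the tooth germ, a species has 1 library of each and no replicates, and otherwise the spread may be technical.

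An integrin is a cell surface receptor made of 1 alpha and 1 beta subunit, which binds matrix proteins outside the cell and, through its tail, talin, kindlins and the actin or keratin cytoskeleton inside. In epithelia, alpha 6 beta 4 is the laminin receptor of hemidesmosomes, and beta 1 pairs with many alpha subunits to form receptors for laminin, collagen and fibronectin. Subunit alpha v pairs with beta 1, beta 6 or beta 8, and the pairs with beta 6 or beta 8 are known for activating latent TGF-beta.

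Levels were taken from the authors' FPKM (mouse) and TPM (gerbil), both per length, and rescaled so that the matched genes of a library add up to 1000000. The tables were normalized separately, so levels set across species depend on this rescaling. Depth is unknown for mouse and was not analysed here for gerbil, and no counting interval is given. Between species, the log2 difference of all genes rose with transcript length, with a median of -1.50 over the 259 shortest and 2.31 over the 258 longest. Integrin transcripts are long, at 3815 to 8403 bases against a median of 3382 over the 10329 genes compared. The trend was removed from each library before the species were set against each other, and values without this step are given for the subunits whose call they change. In such bulk samples, fewer cells of a type and less RNA per cell cannot be told apart.

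The labelled epithelium was present in every library. The 11 measured genes of the epithelium list, which includes the keratin genes Krt5 and Krt14, summed to levels of 8154 and 9520 in gerbil E23 and E21 and to 7702 and 5876 in mouse SEK and PEK. RNA of other cell types was also found. The 15 dental mesenchyme genes summed to 4080 and 2129 in gerbil E23 and E21 and to 2016 and 1765 in mouse SEK and PEK. The 8 endothelial genes summed to 140 in gerbil E23 and 8.75 in gerbil E21, where Emcn and Esam were listed at 0, and to 34.0 in mouse SEK and 9.86 in mouse PEK, where Erg was listed at 0. The 6 blood and immune genes summed to 44.7 and 11.5 in gerbil E23 and E21 and to 22.7 and 5.29 in mouse SEK and PEK. The 7 muscle genes summed to 59.2 and 40.4 in gerbil E23 and E21, with Myod1 at 0 in both, and to 593 and 138 in mouse SEK and PEK. The 4 platelet and megakaryocyte genes summed to 33.8 and 1.73 in gerbil E23 and E21 and to 15.5 and 8.08 in mouse SEK and PEK. As summed levels, all 5 lists of other cell types stood higher in E23 than in E21 and higher in SEK than in PEK. The epithelium list was lower in E23 than in E21 and higher in SEK than in PEK. Single genes went both ways within some lists. In dental mesenchyme, Col1a1 (204 in SEK, 48.3 in PEK) and Barx1 (540, 209) were higher in SEK, and Vim (172, 303) and Pdgfrb (6.04, 49.7) lower. Barx1 was lower in E23 (17.7) than in E21 (38.2). In the epithelium list, Krt5 (2378, 1624) and Krt14 (2843, 1739) were higher in SEK, and Cdh1 (39.3, 52.2) and Krt18 (230, 346) lower. Calls between species followed the criterion used for the subunits further on, which 13.5% of all genes met for gerbil and 15.0% for mouse. For gerbil and mouse, they numbered 4 and 3 of 11 compared genes in the epithelium list and 0 and 3 of 15 in dental mesenchyme. They numbered 0 and 0 of 8 in endothelium, 1 and 0 of 5 in blood and immune cells, 0 and 2 of 7 in muscle and 0 and 0 of 3 in platelets. The part of these cell types in the integrin values was not tested.

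Among the listed subunits, Itgb1, Itga6 and Itgav formed the most abundant group in both species. In gerbil, the highest mean level was that of Itgb1, the shared beta partner, at 410 ± 118, followed by Itga6, from 2 summed rows described further on, at 344 ± 60.7 and Itgav at 327 ± 72.3 (SD, n = 2, as for all means here). These neighbours did not differ beyond their spread. Next in order were Itga3, the laminin-binding alpha 3 subunit gene, at 114 ± 11.0, Itgb4 at 84.5 ± 11.4 and Itgb8 at 65.0 ± 28.8. Then came Itga5, encoding the alpha chain of the fibronectin receptor, at 43.0 ± 3.65, and Itga9, whose product binds tenascin C, at 25.7 ± 1.95. The lowest were Itgb6 at 17.3 ± 5.76 and the collagen receptor gene Itga2 at 10.8 ± 1.03.

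The mouse order was alike at the top and different at the bottom. Itga6 led at 204 ± 154 and Itgav followed at 168 ± 92.4, with an SD that covers the gap between them. Itgb1 stood at 96.3 ± 5.33, Itga3 at 43.2 ± 11.1, Itgb4 at 36.6 ± 20.8 and Itga5 at 16.7 ± 7.48. Itga2, last in gerbil, came seventh in mouse at 8.59 ± 5.02, above Itga9 at 4.18 ± 2.49, Itgb8 at 2.60 ± 1.20 and Itgb6 at 1.303 ± 0.231. Within the libraries, Itgb8 lay above 71.3% and 47.9% of the compared genes in gerbil E23 and E21, and above 11.5% and 14.8% in mouse SEK and PEK.

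**Figure D1:**
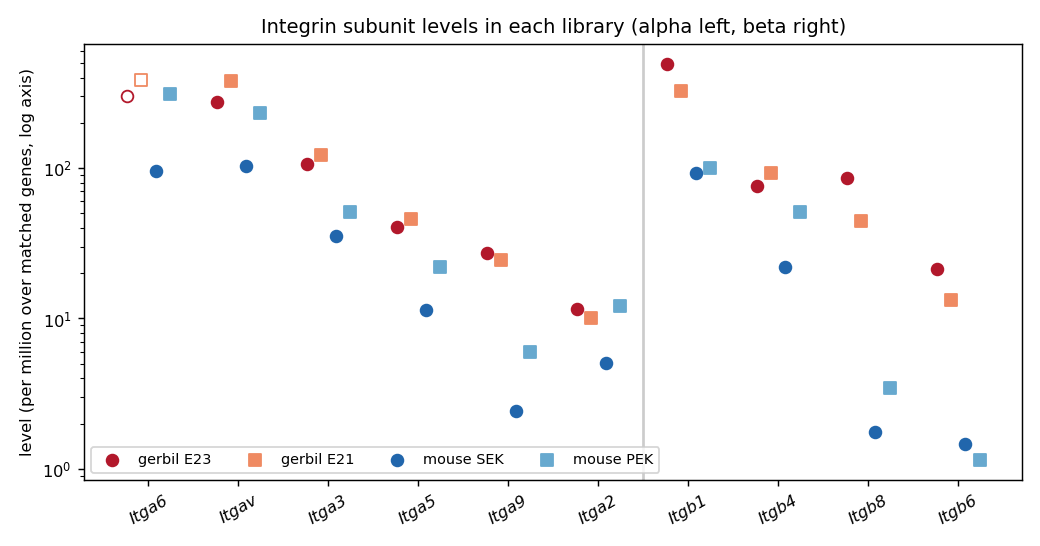
Level of each integrin subunit gene (matched genes of a library add up to 1000000, log axis) in gerbil E23 (red) and E21 (orange) and mouse SEK and PEK (blue), 1 point per library. Hollow points for Itga6 are sums of 2 gerbil rows identified by description; Itgb8 and Itgb6 show the widest gap between species, and the gerbil points of Itga2 lie between its mouse points.

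Of the 9 subunits measured by name in both species, 1 was called higher in gerbil, 1 was called higher in mouse and 7 met neither criterion, where a call means that both libraries of a species lay at least 2-fold above both of the other after the length trend was removed. Over all compared genes, 13.5% were called higher in gerbil and 15.0% higher in mouse, so the subunits were called about as often as genes at large. Their median log2 difference (gerbil minus mouse) was 0.17, and that of all genes was -0.01. The libraries of the species did not overlap for 8 of the 9 subunits, 4 in each direction, against 74.5% of all genes. No significance test was made, since the tables were normalized separately and 2 against 2 libraries cannot give a two-sided exact permutation p below 0.333. Where only a centring on the median of all genes was used and the length trend was left in, 8 of the 9 differences were positive, 4 were called higher in gerbil and 0 in mouse, against 18.5% and 19.5% of all genes.

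**Figure D2:**
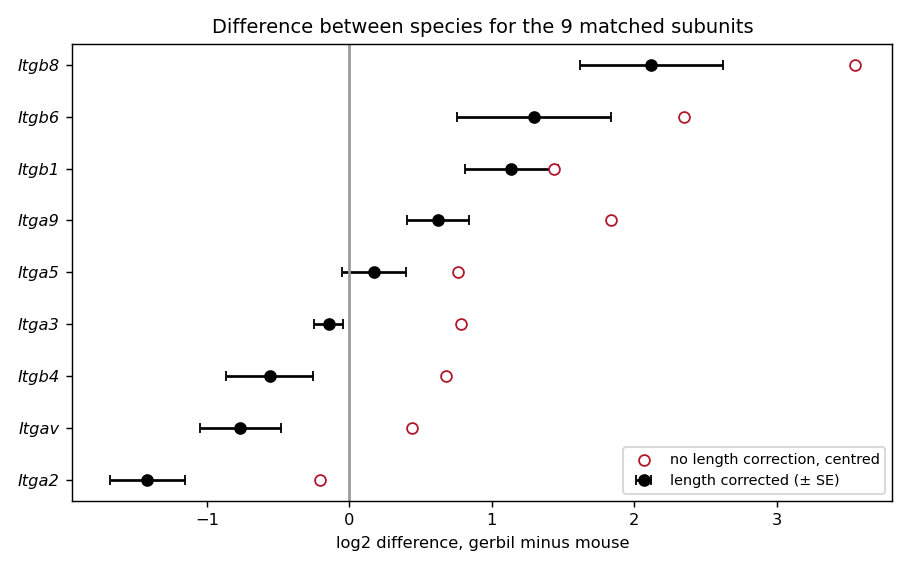
Log2 difference, gerbil minus mouse, for the 9 subunits matched by name (n = 2 libraries per species): filled points with the length trend removed (± SE), hollow points with centring only. Filled points run from -1.42 for Itga2 to 2.12 for Itgb8, and every hollow point lies to the right of its filled one.

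Itgb8, which encodes the alpha v partner beta 8, was the subunit called higher in gerbil. Its level was 85.4 in gerbil E23 and 44.6 in gerbil E21, against 1.75 in mouse SEK and 3.45 in mouse PEK. Both gerbil libraries stood above both mouse libraries. On the corrected log2 scale the nearest libraries of the species were 1.59 apart, and E23 and E21 stood at 5.46 and 4.45. The corrected log2 difference was 2.12 ± 0.50 (SE), a 4.35-fold difference, and it was 3.55 with centring only. The call was made under every alternative in which Itgb8 was measured; a minimum level of 10 in each species leaves it out for its low mouse level.

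Itga2, which encodes the collagen-binding alpha 2 subunit, was the one called higher in mouse, and this call rests on the length correction. Its level was 11.6 in gerbil E23 and 10.1 in gerbil E21, against 5.04 in mouse SEK and 12.1 in mouse PEK. On this scale the gerbil values lie between the mouse values. Because genes of its length stood higher in gerbil by 1.83 on the log2 scale, the corrected difference was -1.42 ± 0.27 (SE), or 2.67-fold. With centring only it was -0.21 and not called, and with neither step it turned to 0.41.

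The promoters of these 2 subunit genes are printed because they identify the pair on which the calls fell. They are mouse RefSeq sequences of build GRCm38.p6, from 250 bases before to 50 bases after the annotated start, 5′ to 3′ on the strand of the gene. Both strands were searched for 3 motifs, and capitals mark the matches. The GC box was searched as GGGCGG. The TATA box was searched as TATAAA. The AP-1 element was searched as TGANTCA, and none of these motifs overlapped in the windows printed. The Itga2 window is chr13:114932051-114932350 and the Itgb8 window is chr12:119238227-119238526, both on the minus strand. The start is that of RefSeq, and the Itgb8 window lies wholly inside the gene span of the mouse table, 119158022 to 119238802.
Itga2: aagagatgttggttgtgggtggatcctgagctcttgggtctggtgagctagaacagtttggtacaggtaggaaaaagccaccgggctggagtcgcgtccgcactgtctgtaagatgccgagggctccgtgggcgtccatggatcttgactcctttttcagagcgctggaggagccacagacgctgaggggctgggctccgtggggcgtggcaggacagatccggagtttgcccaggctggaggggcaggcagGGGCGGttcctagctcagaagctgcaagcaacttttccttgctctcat
Itgb8: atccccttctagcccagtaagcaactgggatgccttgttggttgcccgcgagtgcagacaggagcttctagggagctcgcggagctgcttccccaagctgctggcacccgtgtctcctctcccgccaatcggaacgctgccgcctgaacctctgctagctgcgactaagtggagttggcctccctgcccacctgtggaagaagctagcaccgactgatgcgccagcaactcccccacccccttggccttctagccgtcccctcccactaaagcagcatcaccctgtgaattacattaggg
The Itga2 window held 1 GC box and 0 of the other motifs, and the Itgb8 window held 0 of all 3, which says only that these letters are not in this window. Of the 32851 mouse promoter windows, 35.7% held the GC box, 13.6% the TATA box and 7.81% the AP-1 element. G and C made up 59.3% of the Itga2 window and 60.7% of the Itgb8 window, against a median of 52.7%. Windows were found for 8 of the 10 members, with no entry for Itga6 or Itgb4, and of their 10 windows 6 held a GC box, 0 a TATA box and 2 an AP-1 element. Those with an AP-1 element, of Itga9 and of Itga3, lie wholly inside the spans that the mouse table gives these genes.

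The remaining beta subunits leaned to opposite sides. Itgb6, encoding the epithelial alpha v partner beta 6, was at 21.4 in gerbil E23 and 13.3 in gerbil E21, against 1.47 in mouse SEK and 1.14 in mouse PEK. The species did not overlap, but the gap fell short of the criterion after correction (log2 1.296 ± 0.54). With centring only the difference was 2.35 and was called higher in gerbil, as it was without gerbil E21 (1.58) or without mouse SEK (1.67). Itgb1 was at 494 in gerbil E23 and 326 in gerbil E21, against 92.6 in mouse SEK and 100.1 in mouse PEK. All gerbil values lay above all mouse values, with a corrected difference of 1.14 ± 0.33 that was not called. It was called higher in gerbil with centring only (1.43), with no minimum level (1.42) and without gerbil E21 (1.52). Itgb4, the hemidesmosomal subunit gene, was at 76.4 in gerbil E23 and 92.5 in gerbil E21, against 21.9 in mouse SEK and 51.3 in mouse PEK. Its corrected difference was -0.56 ± 0.31, not called, and it was 0.68 with centring only and 0.12 with GC content corrected as well, so its direction rests on the correction.

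Of the other alpha subunits matched by name, none was called. Itgav was at 276 in gerbil E23 and 378 in gerbil E21, against 103 in mouse SEK and 233 in mouse PEK. Its corrected difference was -0.77 ± 0.28, and 0.44 with centring only. Itga3 was at 106 in gerbil E23 and 122 in gerbil E21, against 35.4 in mouse SEK and 51.1 in mouse PEK. Both gerbil values were higher as levels, yet the corrected difference was -0.14 ± 0.10, while with centring only it was 0.78 and with neither step 1.40 and called higher in gerbil. Itga5 was at 40.5 in gerbil E23 and 45.6 in gerbil E21, against 11.5 in mouse SEK and 22.0 in mouse PEK. Its corrected difference was 0.17 ± 0.22, with overlapping libraries, and it turned to -0.07 without mouse SEK. Itga9 was at 27.1 in gerbil E23 and 24.4 in gerbil E21, against 2.42 in mouse SEK and 5.95 in mouse PEK. Its corrected difference of 0.62 ± 0.22 was not called, although with centring only it was 1.84 and called higher in gerbil.

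**Figure D3:**
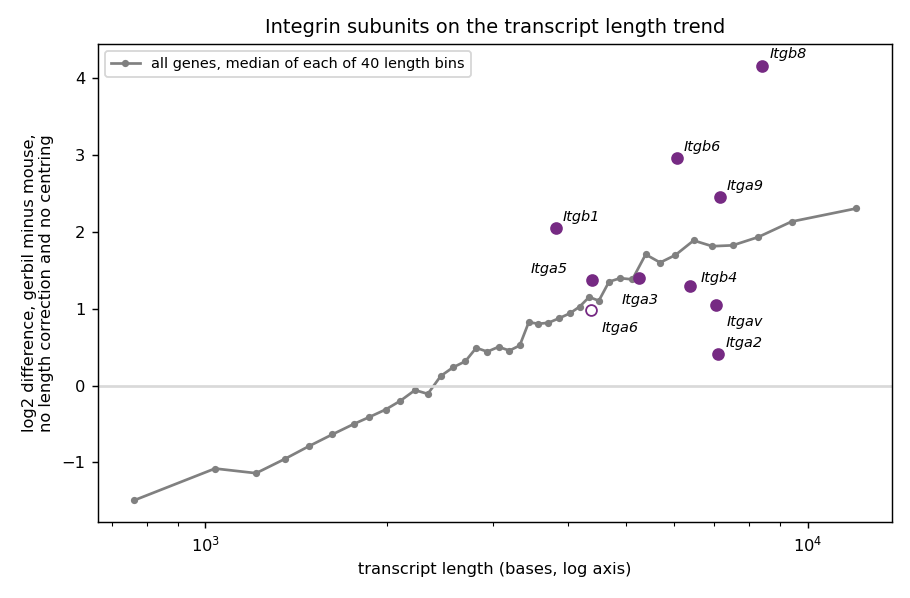
Log2 difference, gerbil minus mouse, with no correction and no centring, against transcript length (bases, log axis): the grey line joins the medians of 40 length bins over all compared genes, and purple points are the integrin subunits, Itga6 hollow because its gerbil value sums 2 rows found by description. Itgb8, Itgb6, Itgb1 and Itga9 lie above the line, and Itga2, Itgav and Itgb4 below it.

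Itga6, the alpha partner of Itgb4, has no row under its own name in the gerbil table. The table instead describes 2 unnamed genes as integrin alpha-6, ENSMUGG00000026006 and ENSMUGG00000026007, which lie on 1 scaffold on opposite strands, 13.8 kb apart, each spanning about 65 kb (65.1 and 65.2 kb). The first stood at 201 in gerbil E23 and 248 in gerbil E21, and the second at 101 in gerbil E23 and 139 in gerbil E21. If the pair is near-identical, reads could be split between its rows, so the values are uncertain. Summed, they came to 301 in gerbil E23 and 387 in gerbil E21, against 94.9 in mouse SEK and 313 in mouse PEK for the single mouse gene. The sum, chosen after the values were seen, overlapped the mouse range and gave a corrected difference of -0.25 ± 0.65, not called. The larger row alone gave -0.86 ± 0.65 and the smaller alone -1.77 ± 0.67, and these were not called either. Adding the summed gene to the list left the counts of calls at 1 and 1.

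Ratios between subunits of 1 library need no scaling between the tables, although genes of unequal length still carry the length trend, and the ratios described next were chosen after the levels had been seen. Itga9 and Itga2 have transcripts of nearly equal length, 7145 and 7108 bases. The Itga9 to Itga2 ratio was 2.35 in gerbil E23 and 2.41 in gerbil E21, against 0.480 in mouse SEK and 0.490 in mouse PEK. The order of these genes was thus turned round between the species, a 4.90-fold change of the ratio with little spread within a species. The Itgb8 to Itgav ratio, between an alpha v partner and alpha v itself, was 0.310 in gerbil E23 and 0.118 in gerbil E21, against 0.0170 in mouse SEK and 0.0148 in mouse PEK. The Itgb6 to Itgav ratio was 0.0777 in gerbil E23 and 0.0351 in gerbil E21, against 0.0143 in mouse SEK and 0.00488 in mouse PEK. Neither ratio overlapped between species. In contrast, the Itgb1 to Itgav ratio overlapped, at 1.79 and 0.863 in gerbil E23 and E21 and 0.901 and 0.429 in mouse SEK and PEK. The Itga5 to Itga3 ratio did too, at 0.381 and 0.375 in gerbil E23 and E21 and 0.324 and 0.431 in mouse SEK and PEK. The Itga6 to Itgb4 ratio, with the summed gerbil rows, was 3.94 and 4.19 in gerbil E23 and E21 and 4.33 and 6.10 in mouse SEK and PEK, so the alpha 6 transcript exceeded that of its hemidesmosomal partner in every library.

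**Figure D4:**
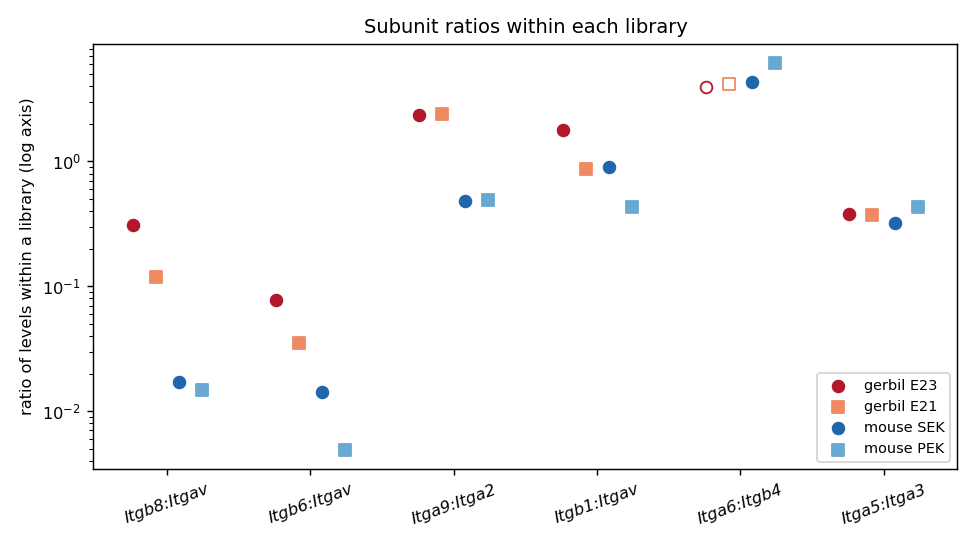
Ratio of the levels of 2 subunit genes within each library (log axis), gerbil E23 in red, gerbil E21 in orange and mouse SEK and PEK in blue, with hollow points where the summed gerbil Itga6 rows enter. Itgb8:Itgav, Itgb6:Itgav and Itga9:Itga2 are higher in both gerbil libraries than in both mouse libraries, and Itgb1:Itgav and Itga5:Itga3 overlap.

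Among the 4 beta subunits of the list, which leaves out Itgb5, Itgb1 held the largest share of the summed level in every library, at 72.9% and 68.4% in gerbil E23 and E21 and 78.6% and 64.2% in mouse SEK and PEK. Itgb8 held 12.6% and 9.36% in gerbil E23 and E21, against 1.49% and 2.21% in mouse SEK and PEK. Such shares still carry the length trend. Genes of the length of Itgb8 stood higher in gerbil by 2.05 on the log2 scale, and those of the length of Itgb1 by 0.91. Of the summed alpha level, Itga6 with its gerbil rows added together and Itgav made up 39.5% and 36.2% in gerbil E23 and 40.04% and 39.1% in gerbil E21. In mouse they made up 37.7% and 40.8% in SEK and 49.1% and 36.6% in PEK.

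Between the 2 mouse libraries, Itga6 was the subunit that differed most. It stood at 94.9 in SEK and 313 in PEK, a log2 difference (SEK minus PEK) of -1.71. With 1 library on each side there is no replicate check. In all, 5 of the 10 subunits were lower in SEK past 2-fold and 0 were higher, against 18.2% and 6.22% of 12510 mouse genes. The others were Itgb4 (log2 -1.19), Itgav (-1.18), Itga2 (-1.12) and Itga9 (-1.02). Itgb1 stood at nearly equal levels (-0.11) and Itgb6 was slightly higher in SEK (0.20). This shift also followed transcript length. After the trend between SEK and PEK had been removed, Itga6 alone was past 2-fold (-1.15), against 8.41% of genes lower in SEK. Also lower were Itgb4 (-0.48), Itgav (-0.34), Itga5 (-0.32), Itga2 (-0.29) and Itga9 (-0.20). Higher in SEK were Itgb6 (0.92, from low levels of 1.47 and 1.14), Itgb1 (0.26), Itga3 (0.21) and Itgb8 (0.13). Centring on the median of all genes likewise left Itga6 alone past 2-fold (-1.48), against 11.4% of genes.

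Between the 2 gerbil libraries, none of the 9 subunits was past 2-fold, against 6.09% of 10813 gerbil genes higher and 4.03% lower in E23. That count stayed at 0 with the length trend of the pair removed, where 3.59% of genes were lower in E23, and with centring, where 3.51% were. The share of genes higher in E23 was not computed for these settings, in which Itgb8 stood at log2 0.96 and 0.98. As scaled, the subunit nearest to 2-fold was Itgb8, at 85.4 in E23 and 44.6 in E21 (log2 0.92, E23 minus E21), followed by Itgb6 (0.65) and Itgb1 (0.60). On the other side were Itgav (-0.45), the summed Itga6 rows (-0.36) and Itgb4 (-0.27). The summed lists of dental mesenchyme, endothelium, blood and immune cells, muscle and platelets were all higher in E23 too, as were Itgb8, Itgb6 and Itgb1, and their part was not tested.

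**Figure D5:**
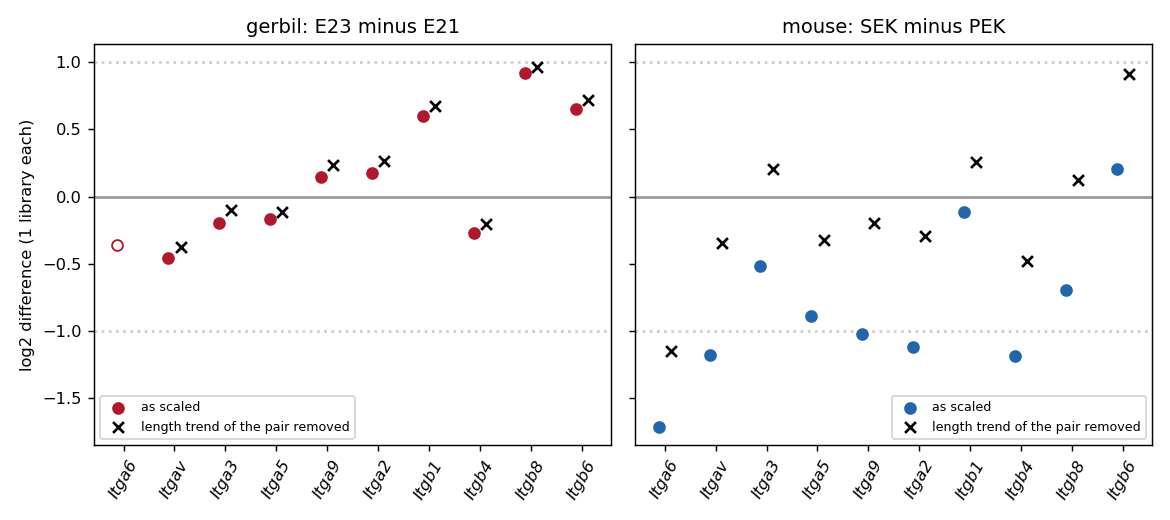
Log2 difference of each subunit between the 2 libraries of a species, E23 minus E21 for gerbil (left) and SEK minus PEK for mouse (right), 1 library each, as scaled (circles, hollow for the summed gerbil Itga6 rows) and with the length trend of the pair removed (crosses). Dotted lines mark 2-fold; in mouse, Itga6 is the one subunit past 2-fold on both scales.

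Other integrin subunits were listed separately, mostly those of leukocytes, platelets, muscle and mesenchyme. Of 17 listed genes, 8 were compared, 0 were called for gerbil and 1 for mouse, the collagen receptor gene Itga11, against 13.5% and 15.0% of all genes, with a median difference of -0.14. With centring only the counts turned to 3 for gerbil and 0 for mouse, and with neither step to 4 and 0. They also moved with the length correction kept, to 3 and 1 with a pseudocount of 0.1 and to 2 and 1 without gerbil E21. Leaving out gerbil E23 (6 genes compared) gave 0 and 2, and leaving out mouse PEK (9 compared) gave 0 and 3. Itga11 was at 1.87 in gerbil E23 and 0.528 in gerbil E21, against 2.26 in mouse SEK and 2.34 in mouse PEK (log2 -2.07 ± 0.56), and the call ended with centring only (-1.27) and with neither step (-0.66). Itga4, which encodes a receptor chain for fibronectin and Vcam1, was at 80.0 in gerbil E23, 14.4 in gerbil E21, 1.97 in mouse SEK and 2.29 in mouse PEK and was not called (1.29 ± 1.27), although with centring only it was called higher in gerbil (2.88). It is named, after its values were seen, because it stood far higher in E23 than in E21. The summed lists of other cell types were higher in E23 too. In mouse these lists were higher in SEK than in PEK, whereas Itga4 was not (1.97 and 2.29), and their part was not tested. Itgb5, another alpha v partner and also named after its values were seen, was abundant in both species. The gerbil table holds 2 unnamed rows described as integrin beta-5, on opposite strands of the same scaffold, each spanning 110.3 kb. As for Itga6, reads could be split between near-identical rows, so the values are uncertain. They summed to 454 in E23 and 605 in E21, against 351 in mouse SEK and 480 in mouse PEK. The corrected difference was -0.31 ± 0.15, not called. These levels lay above every listed subunit in both mouse libraries and in gerbil E21, but not in gerbil E23.

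Integrin ligands were called in both directions. Of 29 listed genes, 23 were compared, 4 were called for gerbil and 1 for mouse, against 13.5% and 15.0% of all genes, and their median difference was 0.29. The counts were 7 and 1 with centring only and 11 and 1 with neither step. Tnc, which encodes tenascin C, a ligand of alpha 9 and alpha v integrins, averaged 1190 ± 976 in gerbil and 3.88 ± 1.65 in mouse (log2 5.76 ± 0.89). The laminin alpha 1 gene Lama1 (2.11 ± 0.31), the perlecan gene Hspg2 (1.89 ± 0.17) and Vcam1 (1.77 ± 0.48), a ligand of alpha 4 integrins, were also higher in gerbil, the last not when GC content was corrected as well (1.22). Tgfb1, whose latent protein product is a ligand of alpha v beta 6 and alpha v beta 8, was the ligand gene called higher in mouse, with a mean of 5.98 ± 1.52 in gerbil against 87.0 ± 20.4 in mouse (-3.57 ± 0.39). Fn1, encoding fibronectin, was not called (-0.77 ± 0.56), nor were the laminin chain genes Lama3 (0.43 ± 1.39) and Lamb3 (-0.77 ± 0.39).

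The machinery that links integrins to actin had 4 of 33 compared genes called for gerbil and 4 for mouse, against 13.5% and 15.0% of all genes, and its median difference was -0.07. This balance rests on the length correction, since the counts were 9 and 3 with centring only and 12 and 2 with neither step. Vcl, encoding vinculin, which binds talin and actin, averaged 284 ± 24.5 in gerbil and 6.82 ± 3.87 in mouse (log2 3.73 ± 0.24). Rhoa, a small GTPase gene (1.43 ± 0.11, not called with centring only at 0.76), Arhgef7, an exchange factor gene (1.38 ± 0.12), and Ptk2, encoding focal adhesion kinase (1.35 ± 0.17, not called with GC content also corrected at 1.11), were higher in gerbil. Fermt1, which encodes kindlin-1, the kindlin of epithelia, averaged 47.5 ± 0.786 in gerbil and 382 ± 157 in mouse (-4.34 ± 0.16). The parvin gene Parvb (-2.83 ± 0.47), Tgfb1i1 (-2.05 ± 0.24, not called with centring only at -1.26) and Zyx, encoding zyxin (-1.31 ± 0.14, not called with centring only at -0.98), were higher in mouse too. The integrin-linked kinase gene Ilk met neither criterion (0.33 ± 0.13). The talin gene Tln1 did not either (-0.04 ± 0.19), but with centring only it was called higher in gerbil (1.39). Fermt2, encoding kindlin-2, was not called (-1.304 ± 0.39), but was called higher in mouse with GC content also corrected (-1.62).

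Among the 10 hemidesmosome and tetraspanin partners, calls numbered 3 for gerbil and 1 for mouse, against 13.5% and 15.0% of all genes, and the median difference was 0.98. The counts were 4 and 2 with centring only and 5 and 1 with neither step. Col17a1, encoding the transmembrane collagen of hemidesmosomes, averaged 178 ± 55.0 in gerbil and 8.35 ± 1.77 in mouse (log2 2.60 ± 0.60). Cd151, a tetraspanin gene whose product binds laminin-binding integrins (2.18 ± 0.52), and Cd82 (1.86 ± 0.62) were higher in gerbil, although with centring only they were at 1.29 and 0.95 and not called. Cd9, another tetraspanin gene, was called higher in mouse, with a mean of 115 ± 27.0 in gerbil against 642 ± 65.1 in mouse (-1.37 ± 0.26), and was not called with a pseudocount of 0.1 (-1.29). The plectin gene Plec was not called (0.00 ± 0.23), nor was Dst (1.52 ± 0.53), encoding the keratin linker dystonin, while with centring only both were called higher in gerbil (Plec 1.64, Dst 3.16).

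The genes with the pattern most like that of a called subunit were sought among 8245 genes for Itga2 and 8244 for Itgb8. Distance was taken between corrected log2 levels after each gene's own mean over the 4 libraries was subtracted. It thus compares patterns, and genes of unlike level can lie close. The nearest genes to Itga2 were Tmem256 (distance 0.09) and Dnase2a (0.11), and those to Itgb8 were Manba (0.09) and Col9a2 (0.18). With 4 libraries such likeness is a description only.

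In GRCm38 coordinates of the mouse table, Itgb8 (ENSMUSG00000025321) spans positions 119158022 to 119238802 of chromosome 12 and Itga2 (ENSMUSG00000015533) 114832950 to 114932041 of chromosome 13. Itga6 (ENSMUSG00000027111), Itgav (ENSMUSG00000027087) and Itgb6 (ENSMUSG00000026971) all lie on chromosome 2, at 71745616 to 71858416, 83722112 to 83806916 and 60598292 to 60722643. The rows for Itgb4 (ENSMUSG00000020758), Itga3, Itga5, Itga9 and Itgb1 were on chromosomes 11, 11, 15, 9 and 8.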

How the data were processed

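RNA sequencing had been done on 4 libraries, 2 of gerbil and 2 of mouse, made with a SMARTER mRNA-Seq kit per the labels' protocols. Per the submitters' processing notes, the tools were RSEM 1.3.1, STAR 2.7.1a and cutadapt 2.8, and GRCm38 and mm10 are the builds listed, with no roles stated. The mouse table holds FPKM per assembled locus, per the file headers, for 27632 loci, and the gerbil table holds TPM per gene, per the file headers, for 25745 genes. No source used here gives the gerbil build. A further 4 columns with values per gerbil sample were left aside. The column names identify the species, and which of its samples a column holds is not shown.

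Genes were matched by symbol, ignoring case, keeping names unique within both tables and none that begin with LOC or Gm or end in Rik. Levels were FPKM or TPM rescaled to 1000000 over the 13322 matched genes, and log2(level + 1) was used, which makes the change of low genes look smaller. A mean level of 1 or more and a GENCODE M21 transcript length (exon union of the basic set, GRCm38) were required, leaving 10329 genes. In each library each gene's log2 level was set against its own mean, and the median of these deviations in 40 length bins was interpolated and subtracted. A standard error comes from 2 libraries per species. Libraries of 1 species were compared over all uniquely named genes of that species at the same minimum. No test was planned or made. The procedure was tested on simulated data. Python 3.11.15, pandas 2.3.3, numpy 2.4.6 and matplotlib 3.10.9 were used.

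The members, the 10 gene lists and the call rule were chosen with earlier results of these data known. From each list, up to 4 called genes per direction are named, ordered by how far apart the closest gerbil and mouse libraries lie, along with other members given as counterexamples, which were picked after their values were seen. For each called member, the 2 genes of most similar pattern with a mean level of at least 10 are named. Alternatives changed the length correction, centring, GC correction, pseudocount, minimum level, fold and libraries.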

Additional observations from a re-analysis of the deposited data

How the results depend on the processing

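The count of subunits called higher in gerbil, 1 in the reported analysis, was 4 with centring in place of the length correction, 5 with neither step, 2 with no minimum level, 0 with a minimum of 10 in each species (which left 5 subunits) and 2 with 1.5-fold as the criterion. The count called higher in mouse, 1 as reported, was 0 with centring only, with neither step, with no minimum level, with the minimum of 10 and with 3-fold as the criterion. Leaving out 1 library in turn gave 1 to 3 subunits higher in gerbil and 1 to 1 higher in mouse. The 3 were reached without gerbil E21 and 2 without mouse SEK. Over all genes, 18.5% were called for gerbil and 19.5% for mouse with centring only. No such share was computed for the other alternatives, so their counts of subunits and of list genes cannot be set against genes at large.

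The median difference of 0.17 was 0.78 with centring only, 1.40 with neither step, 0.54 with GC content also corrected, 0.32 with no minimum level, 0.0022 with the minimum of 10 and 0.0158 with Itga6 added from its described gerbil rows, an alternative chosen after seeing the data. It ranged from -0.0438 to 0.407 when 1 library was left out. Subunits past 2-fold between SEK and PEK numbered 5 as reported, 1 with centring and 1 with length corrected. Between E23 and E21 they numbered 0 under each of the 4 alternatives run.

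With neither length correction nor centring, which moves the median of all genes to 0.61, Itga2 turned to 0.41 and Itga3 to 1.40. Over single genes and lists under all alternatives, 516 values kept their side of the criterion or were list counts that changed by 1.5-fold or less. Of these, 10, all differences that were not called, changed sign. A further 34 moved past the criterion or gained more in count, and 53 fell short of it or lost more in count. No paired analysis was possible because the columns carry no sample numbers. Depth is not known for mouse, so low levels such as those of Itgb6 and Itgb8 there have no counting limit.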
